A study of Mus musculus with 33 samples.

Results

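Resident memory CD8 T cells (TRM) without the Nur77GFP signal were sorted from mouse skin 1 day after an allergen retest, and the 2 treatment arms of that sort are compared here over all genes. The comparison holds 4 libraries of the 33 in the series: 2 under header code 4 and 2 under header code 3. The members were taken from the column headers, which give the code and the GFP state. The labels list 2 acetone and 2 TA libraries for this sort, but the headers name no treatment, so 1 code is TA and the other acetone, and neither was assigned from expression values.

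All animals were Nur77GFP mice allergic to the contact allergen 2,4-dinitrofluorobenzene (DNFB), which serves to model the allergic contact dermatitis that CD8 T cells mediate. Code 4 and code 3 cells both came from skin 24 hours after DNFB retest, from animals given TA, the topical glucocorticosteroid of the study at 0.01%, or its control acetone. Every library was sorted as live CD45+CD8+CD69+CD103+ cells. GFP-negative cells are those without the reporter signal at the sort, and GFP-positive TRM of the same 2 codes (2 libraries each) were used to test whether a difference between the codes depended on the GFP state. GFP-negative TRM taken just before retest from acetone-treated mice (3 libraries, day 0) are given beside them. They are the starting level of the acetone code only. For the code that is TA, a difference from day 0 holds treatment and time together, which cannot be told apart. Replicates are lettered A and B, but the labels do not tell whether each had its own animals. The p-values therefore cover the spread among replicate libraries, which may be technical. It was estimated over all 17 libraries of the first experiment, to which these belong, and not over the compared ones alone.

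TRM stay in the skin after an allergic reaction and carry CD103, an integrin that holds them to the epithelium, and CD69, which opposes exit from tissue. When the allergen returns, cells whose T cell receptor (TCR) meets it release cytokines such as interferon gamma, and bystander cells respond to those cytokines. Nur77, encoded by Nr4a1, is switched on by TCR signals, so GFP marks recent TCR signalling. Glucocorticoids bind a nuclear receptor that raises transcripts such as Tsc22d3 and Fkbp5 and represses many inflammatory ones.

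Levels are given as CPM (counts scaled to TMM-adjusted library totals by edgeR), for library A and then B. Log2 fold changes (± SE) are of code 4 over code 3, or of the named groups, from edgeR's quasi-likelihood test, and a gene was called where its Benjamini-Hochberg adjusted p over the 11588 genes tested was under 0.05. Code 4 libraries held 2442825 and 2519106 counts, and code 3 libraries held 5440609 and 6741144. Transcripts of the mitochondrial genome took 35.8 and 36.7% of counts in code 4, and 28.6 and 28.4% in code 3. The correlation of log2 CPM was 0.862 within code 4 and 0.916 within code 3, against 0.826 to 0.841 between the codes. Of the 775 genes called between the codes in the full data, 698 were among the 761 called with every library thinned to the smallest total (198 higher and 563 lower), and 771 among the 772 called with mitochondrial genes left out.

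The sorted identity was present in all 4 libraries. Cd8a, the CD8 alpha chain, stood at 575 and 598 CPM in code 4 and 780.4 and 704 CPM in code 3, and Cd8b1, the beta chain, at 696 and 614 CPM and 594 and 572 CPM. Neither was called (-0.34 ± 0.13 and 0.17 ± 0.13, adjusted p = 0.146 and 0.507). Cd69 had 284 and 258 CPM in code 4 against 319 and 284 CPM in code 3, and Cxcr6, a chemokine receptor of TRM, had 167 and 168 CPM against 181 and 193 CPM, again with no call for either. Itgae, which encodes CD103, was detected throughout but lower in code 4, at 82.1 and 58.7 CPM against 161 and 152 CPM (-1.15 ± 0.26, adjusted p = 0.0102), and without code 4 library B this call was lost (-0.94, adjusted p = 0.103). The CD4 gene had no count in any of the 4 libraries. Nr4a1 stood at 1342 and 1343 CPM in code 4 and 879 and 1151 CPM in code 3 and was not called (0.40 ± 0.18, adjusted p = 0.224). The reporter transcript eGFP, at 11.1 and 9.92 CPM in code 4 and 1.59 and 5.81 CPM in code 3, was not called either. In GFP-positive cells eGFP had 5.55 and 10.2 CPM in code 4 and 20.1 and 11.7 CPM in code 3, so the few counts of the reporter overlapped between the sorts of code 4 and not between those of code 3.

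Code 4 differed from code 3 mainly by genes that were lower. Of 11588 genes, 775 (6.69%) were called, 545 (4.7%) lower and 230 (1.98%) higher in code 4, and 432 (3.73%) and 177 (1.53%) of these by over 2-fold. The median log2 fold change over all genes tested was -0.07. Counts of list members called between the codes are to be read beside these shares of all genes, 4.7% lower and 1.98% higher. Some granzyme, interferon-induced, cell division and actin cytoskeleton genes were lower, while some brakes on signalling, some glucocorticoid-induced genes and some ribosomal protein genes were higher. The count was 556 and 530 without code 4 library A or B, and 356 and 491 without code 3 library A or B.

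**Figure D1:**
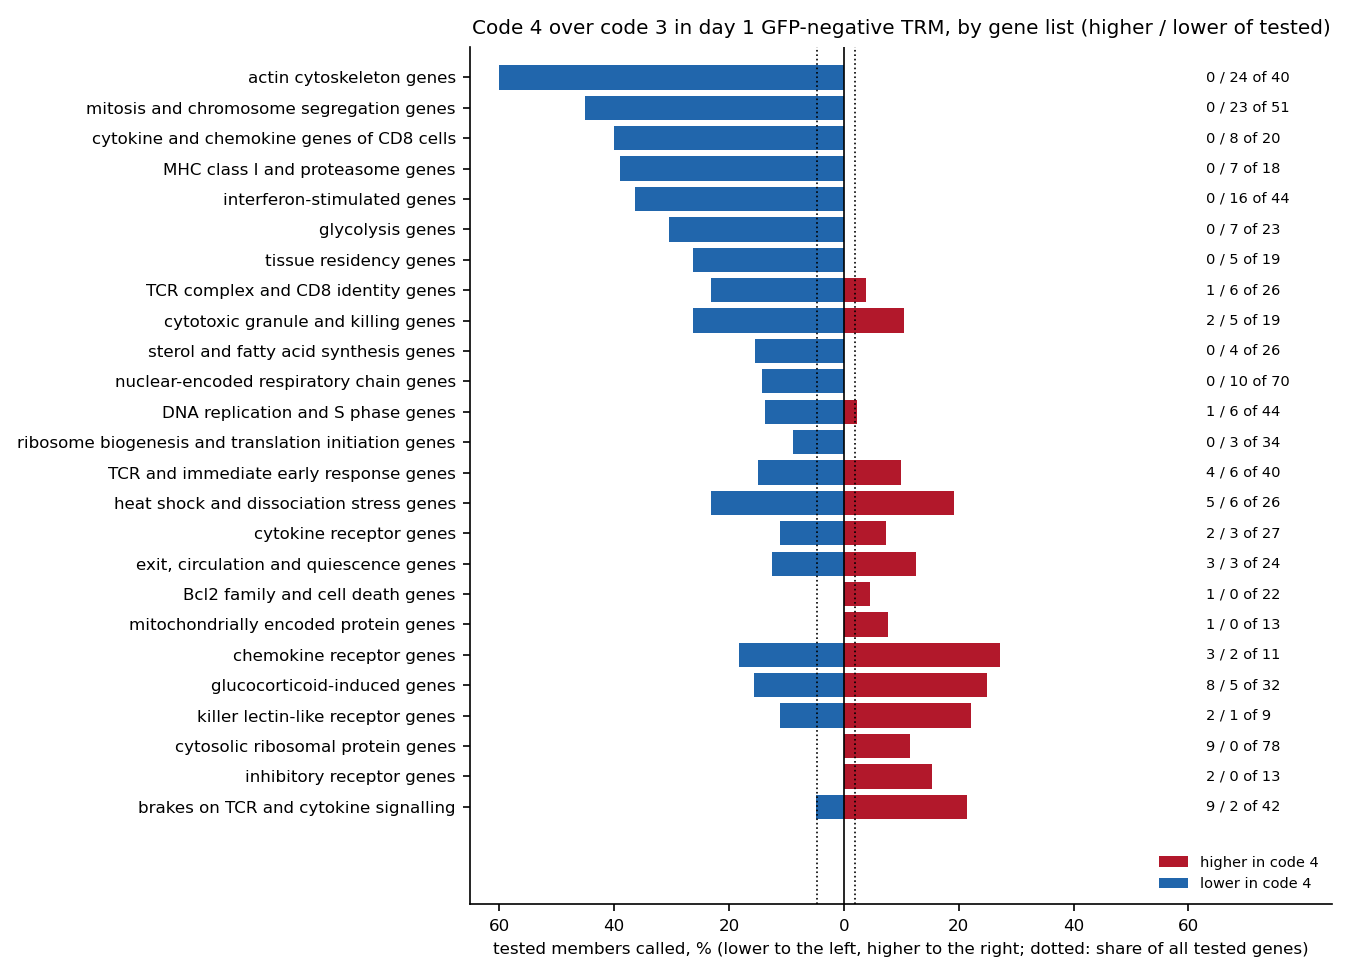
Bars give the percentage of tested members of each T cell gene list called lower (left, blue) or higher (right, red) in code 4 than in code 3, with the counts at the right and dotted lines at the 4.7% lower and 1.98% higher of all tested genes. The actin cytoskeleton list has the longest bar to the left, 24 of 40 lower and 0 higher, and the list of brakes has 9 of 42 higher and 2 lower.

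Genes of the killing machinery changed in both directions, with Gzmb, Gzmc and Gzma lower in code 4. Of 19 tested genes of the cytotoxic list, 5 were lower and 2 higher (median -0.47; higher counts of 1 and 1 without code 4 library A or B and 1 and 0 without code 3 library A or B). Gzmb, the serine protease that CD8 cells release into their targets (ENSMUSG00000015437.5; chromosome 14, 56258838 to 56262260, minus strand, on GRCm38 as in GENCODE vM21, like the other gene positions), had 1606 and 1573 CPM in code 4 against 25871 and 21192 CPM in code 3. At day 0 it had 907, 848 and 975 CPM. Among these GFP-negative groups, code 3 was far above code 4 and day 0 (-3.89 ± 0.15 between the codes, adjusted p = 2.36e-12). Code 4 lay above day 0 as well (0.80 ± 0.12, adjusted p = 0.000178). GFP-positive cells of each code had more Gzmb, at 9022 and 8823 CPM in code 4 and 52490 and 53250 CPM in code 3. Gzmc, a granzyme of strongly activated cells, had 30.9 and 26.99 CPM against 346 and 312 CPM (-3.50 ± 0.32). It was below its day 0 level of 103, 94.5 and 97.02 CPM in code 4 (-1.76 ± 0.29, adjusted p = 0.00065) and above it in code 3 (1.75 ± 0.26, adjusted p = 0.000308). Nkg7, a granule membrane protein, was at 518 and 505 CPM against 1359.7 and 1094 CPM (-1.26 ± 0.13), with code 3 near the day 0 level of 1207, 1293 and 1123 CPM. Granzyme A followed the same direction, Gzma standing at 82.9 and 90.9 CPM in code 4 and 161 and 192 CPM in code 3 (-1.02 ± 0.20, adjusted p = 0.00242).

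The pore-forming perforin gene Prf1 was not called, at 12.4 and 18.3 CPM in code 4 and 31.3 and 24.1 CPM in code 3 (adjusted p = 0.234). Gzmf was not called either, at 49.5 and 51.6 CPM and 53.2 and 55.4 CPM (adjusted p = 0.889). Ctsc, whose product cathepsin C trims granzymes into their active form, was higher, at 137 and 169.9 CPM against 61.1 and 49.7 CPM (1.47 ± 0.32), a call lost without code 3 library B (1.26, adjusted p = 0.0887). The other higher member was Fasl, the Fas ligand, with 77.1 and 87.7 CPM in code 4 and 41.9 and 37.4 CPM in code 3 (1.06 ± 0.28, adjusted p = 0.0267). It lost its call without any 1 of the 4 libraries (adjusted p from 0.0618 to 0.211). Serpinb9, an inhibitor of granzyme B, was the remaining lower member, at 108 and 60.3 CPM against 232 and 249.8 CPM (-1.51 ± 0.37). Its call was lost without code 4 library B (-1.16), code 3 library A (-1.60) or code 3 library B (-1.52).

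**Figure D2:**
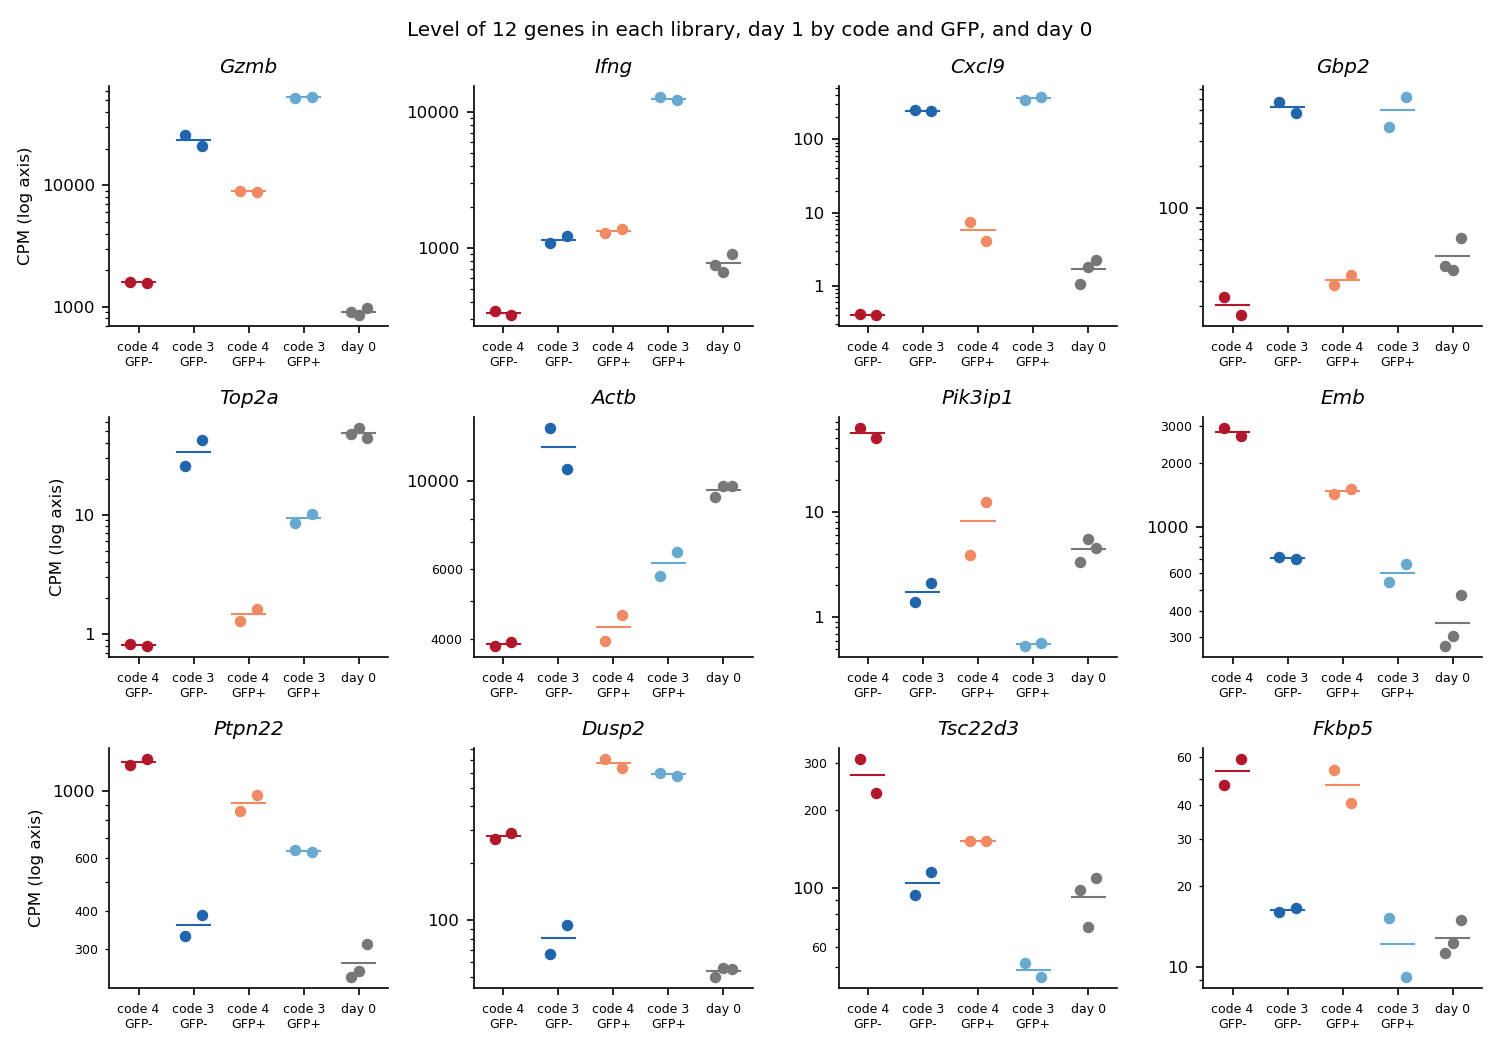
Each point is 1 library and each short line the group mean, in CPM on a log axis, for day 1 GFP-negative and GFP-positive cells of code 4 and code 3 and for day 0. Gzmb, Ifng, Cxcl9, Gbp2, Top2a and Actb are lower, and Pik3ip1, Emb, Ptpn22, Dusp2, Tsc22d3 and Fkbp5 higher, in both code 4 GFP-negative libraries than in both of code 3. Of all tested genes, 27.9% are lower and 19.8% higher in this way.

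Of the cytokine and chemokine genes of CD8 cells, 8 of 20 were lower in code 4 and 0 higher (median -0.63). Ifng, interferon gamma (ENSMUSG00000055170.4; chromosome 10, 118441046 to 118445892, plus strand), had 346 and 319.9 CPM in code 4 against 1083 and 1228 CPM in code 3 and 749, 666 and 905 CPM at day 0. Code 4 was the lowest of the 3 groups without overlap (-1.80 ± 0.16 between the codes, adjusted p = 2.61e-07; -1.22 ± 0.15 over day 0, adjusted p = 1.84e-05). Code 3 was the highest (0.58 ± 0.14 over day 0, adjusted p = 0.0197). Il13, a type 2 cytokine, had 4.95 and 0.794 CPM against 27.2 and 44.5 CPM and 38.04, 31.7 and 36.2 CPM at day 0 (-3.65 ± 0.49, adjusted p = 6.21e-05). With only the 4 libraries fitted by edgeR, its call was lost (adjusted p = 0.0526). Its code 3 levels lay around those of day 0 and its code 4 levels below them. Lta, lymphotoxin alpha, showed another order, with 10.7 and 21.4 CPM in code 4, 71.8 and 93.5 CPM in code 3 and 6.87, 4.49 and 5.74 CPM at day 0 (-2.36 ± 0.38): both codes lay above day 0.

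The chemokine gene Ccl1 had 64.8 and 48.02 CPM in code 4 and 136 and 136 CPM in code 3 (-1.27 ± 0.15). Xcl1, which attracts cross-presenting dendritic cells, had 77.1 and 71.04 CPM and 149 and 139.5 CPM (-0.96 ± 0.15). Areg, the growth factor amphiregulin, had 37.5 and 27.8 CPM and 77.6 and 77.4 CPM (-1.25 ± 0.23). These differences were of about the same size, near 2-fold. Both code 4 libraries lay below both code 3 libraries, as they do in 27.9% of all tested genes. With only the 4 libraries fitted by edgeR, Xcl1 and Areg lost their calls (adjusted p = 0.0707 and 0.0824) and Ccl1 kept its call. The macrophage attractants were not called: Ccl3 stood at 455 and 486 CPM and 389.6 and 482 CPM (adjusted p = 0.741) and Ccl4 at 1334 and 1422 CPM and 1731 and 2036 CPM (adjusted p = 0.217). Tnf was at 67.6 and 58.3 CPM in code 4 and 32.3 and 38.9 CPM in code 3 (adjusted p = 0.112), and Il2 was at or under 2.78 CPM in all 4 libraries.

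Interferon-stimulated genes were lower in code 4 wherever they were called: 16 of 44 tested were lower and 0 higher. The median was -1.85 as fitted and -1.69 with genes that had no count in code 4 set at the lower limit of their fold, which takes 3 counts over the group. Gbp2, a GTPase that attacks the vacuoles of intracellular microbes (ENSMUSG00000028270.12; chromosome 3, 142620602 to 142638008, plus strand), had 23.1 and 17.1 CPM in code 4 against 564 and 474 CPM in code 3, with 38.2, 35.9 and 61.1 CPM at day 0 (-4.69 ± 0.34, adjusted p = 1.91e-08). Ly6a, the surface protein Sca-1, had 571 and 780.2 CPM against 3109.6 and 2569 CPM (-2.07 ± 0.17), and its day 0 libraries, at 649, 671 and 612 CPM, lay within the range of code 4. The nucleic acid sensor gene Zbp1 had 15.3 and 17.1 CPM against 128 and 134 CPM (-3.02 ± 0.38). Iigp1, another GTPase, had no count in code 4 and 48.6 and 31.7 CPM in code 3, at least 64.2-fold lower.

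Cxcl9, a chemokine induced by interferon gamma and best known from macrophages and other myeloid cells, is not on the list and was among the 12 genes with the largest lower folds (ENSMUSG00000029417.9; chromosome 5, 92321347 to 92328079, minus strand). It had 0.412 and 0.397 CPM in code 4, 247 and 245 CPM in code 3 and 1.06, 1.82 and 2.24 CPM at day 0 (-9.16 ± 0.87, adjusted p = 2.34e-06), that is 2 counts over both code 4 libraries. Other interferon-induced genes were not called: Irf1 stood at 82.1 and 84.5 CPM in code 4 and 120.4 and 123 CPM in code 3 (adjusted p = 0.331), Ifi47 at 124 and 65.5 CPM and 124 and 92.5 CPM. The lower count of the list rested in part on single libraries, with 12 and 8 without code 4 library A or B and 6 and 10 without code 3 library A or B. In bulk samples, fewer cells that carry a transcript and less of it per cell cannot be told apart.

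Many interferon-stimulated genes carry the interferon-stimulated response element, read here as 2 copies of GAAA with any 2 bases between them, on either strand, in the 250 bases before the RefSeq start (GRCm38.p6). The core was in 823 of 27026 gene windows (3.05%), in 14 of the 30 windows found for tested list members and in 5 of the 8 found for the 16 lower members. Gbp4, Ifi27l1, Iigp1, Ly6a, Parp9, Rtp4 and Zbp1 were among those with no window. These 5 genes are shown because they share both the element and the direction. The marked match is the 1 nearest to the RefSeq start, beginning 53 to 85 bases before it. For Gbp2, the GENCODE gene position given above begins upstream of the RefSeq start, so the marked match lies just inside the GENCODE gene. The windows of Ifit1 and Isg15 hold 2 and 3 matches, of which the others are not marked. Each line reads 5′ to 3′ on the gene's strand, with the core in capitals, which reads as copies of TTTC where it sits on the other strand.
Gbp2 (chr3:142620579-142620638, plus strand): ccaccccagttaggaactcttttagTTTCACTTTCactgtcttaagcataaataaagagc
Gbp7 (chr3:142530258-142530317, plus strand): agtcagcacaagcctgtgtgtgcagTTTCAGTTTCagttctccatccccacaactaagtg
Ifit1 (chr19:34640779-34640838, plus strand): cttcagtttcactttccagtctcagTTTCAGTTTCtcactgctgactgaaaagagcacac
Isg15 (chr4:156200850-156200909, minus strand): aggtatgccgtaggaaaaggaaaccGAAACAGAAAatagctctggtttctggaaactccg
Oas3 (chr5:120777700-120777759, minus strand): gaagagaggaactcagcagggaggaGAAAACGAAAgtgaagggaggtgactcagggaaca
Apart from Gbp2, these genes were named for their promoters after their values were seen, and all 4 lost the call without at least 1 library. Ifit1, which blocks translation of viral RNA, had 0.412 and 3.17 CPM in code 4 and 77.96 and 43.03 CPM in code 3 (-5.04 ± 1.19; adjusted p = 0.141 and 0.0561 without code 4 library A or B and 0.0928 without code 3 library A). Isg15, a ubiquitin-like protein, had 0.825 and 1.98 CPM and 25.8 and 16.7 CPM (-3.89 ± 0.91). The RNA-degradation trigger Oas3 had 0.412 and 1.19 CPM and 22.02 and 11.6 CPM (-4.34 ± 1.01). Without code 4 library A or code 3 library A, the adjusted p was 0.105 and 0.0933 for Isg15 and 0.0952 and 0.081 for Oas3. Gbp7 stood at 15.7 and 20.2 CPM in code 4 and 70.6 and 84.6 CPM in code 3 (-2.11 ± 0.55, adjusted p = 0.0253; 0.0662 to 0.159 without any 1 of the 4).

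Antigen presentation on MHC class I pointed the same way, with 7 of 18 genes lower and 0 higher (median -0.76; 5 and 7 without code 4 library A or B and 4 and 7 without code 3 library A or B). B2m, the light chain of class I molecules, had 4123 and 4276 CPM in code 4 against 7221 and 5992 CPM in code 3 (-0.65 ± 0.10). Psme1, a subunit of the interferon-induced proteasome activator, had 58.2 and 69.1 CPM against 172 and 163 CPM (-1.40 ± 0.22). The peptide-loading chaperone genes Tapbp and Calr differed by -1.42 ± 0.22 and -1.18 ± 0.17.

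In the mitosis list 23 of 51 genes were lower and 0 higher, with a median of -3.90 as fitted and -1.92 over the 49 genes with a fold when those without counts in code 4 are set at their limit. Stmn1, which frees tubulin from microtubules (ENSMUSG00000028832.11; chromosome 4, 134468320 to 134473843, plus strand), had 14.4 and 14.7 CPM in code 4, 145 and 101 CPM in code 3 and 274, 227 and 234 CPM at day 0 (-3.08 ± 0.23, adjusted p = 2.44e-08). The order code 4, code 3, day 0 held for every library, and code 3 was itself below day 0 (-0.996 ± 0.18, adjusted p = 0.00225). Top2a, which untangles DNA before division, had 0.825 and 0.794 CPM against 25.4 and 41.99 CPM and 47.7, 53.2 and 43.6 CPM at day 0 (-5.34 ± 0.53). Ube2c, a partner of the anaphase-promoting complex, had 1.24 and 1.59 CPM against 40.1 and 43.6 CPM (-4.86 ± 0.51). The tubulin genes Tubb5 and Tuba1b, which resting cells also use, differed less, by -1.30 ± 0.17 and -1.43 ± 0.16. Against day 0, 33 of the 51 were lower in code 4 (5.15% of all genes lower) and 4 in code 3 (1.16% of all genes lower), 2 comparisons that share the day 0 libraries. Between the codes the count was 13 and 17 without code 4 library A or B and 15 and 19 without code 3 library A or B. Markers of other skin cells, which can divide too, moved with these genes. Keratinocyte markers (16 of 31 lower, 0 higher) summed to 1006 and 1276 CPM in code 4, 4891 and 4406 CPM in code 3 and 4636 to 5039 CPM at day 0. Phagocyte markers summed to 156 and 193 CPM in code 4, 1322 and 1217 CPM in code 3 and 642 to 779.5 CPM at day 0. Their part in the mitosis result was not tested.

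DNA replication genes were fewer to pass: 6 of 44 were lower and 1 higher (median -0.76; lower counts of 11 and 3 without code 4 library A or B and 4 and 6 without code 3 library A or B). Rrm2, the subunit of ribonucleotide reductase made in S phase, had 3.30 and 1.98 CPM against 71.8 and 80.7 CPM (-4.84 ± 0.76), a call lost without code 4 library B (-4.53, adjusted p = 0.0678). Uhrf1, which helps to copy DNA methylation, had no count in code 4 and was at least 8.97-fold lower. Of all tested genes, 4.7% were lower and 1.98% higher, and the share of higher genes in this list was near the latter. The higher member was Rpa2, a single-strand DNA binding protein, at 35.5 and 47.2 CPM against 11.7 and 12.5 CPM (1.77 ± 0.37). Its call was lost without code 4 library B (1.54, adjusted p = 0.0507), code 3 library A (1.69, adjusted p = 0.0777) or code 3 library B (1.75, adjusted p = 0.0552).

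Genes used in late cell cycle often carry the cell cycle homology region, TTTGAA, close to their start, along with CCAAT boxes. In the same 250-base windows, read on both strands, TTTGAA was in 4406 of 27026 (16.3%) and CCAAT in 9331 (34.5%). Of the 19 windows found for the 23 lower mitosis genes, 9 held TTTGAA and 14 held CCAAT; over the 43 windows of tested list members the numbers were 17 and 35. Aurkb, Ccna2, Smc4 and Stmn1 had no window. The 5 genes whose nearest match begins 15 to 29 bases before the start are shown, with the match in capitals, which is the reverse complement in Top2a and Ube2c, and each line ending at the base before the start or 25 bases past the match.
Cdk1 (chr10:69352913-69352952, minus strand): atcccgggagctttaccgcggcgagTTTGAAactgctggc
Cks1b (chr3:89418292-89418333, minus strand): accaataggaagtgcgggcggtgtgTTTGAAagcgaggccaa
Cdc20 (chr4:118437344-118437386, minus strand): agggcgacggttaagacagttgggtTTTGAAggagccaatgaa
Top2a (chr11:99024190-99024237, minus strand): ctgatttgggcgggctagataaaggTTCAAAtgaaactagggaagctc
Ube2c (chr2:164769875-164769928, plus strand): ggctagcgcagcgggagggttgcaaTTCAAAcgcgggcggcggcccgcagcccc
Cdk1, the kinase that starts mitosis, had 1.65 and 1.19 CPM in code 4 and 45.2 and 36.8 CPM in code 3 (-4.83 ± 0.67). Its partner Cks1b had 1.24 and 1.59 CPM and 16.9 and 27.4 CPM (-3.95 ± 0.53). Cdc20, an activator of the anaphase-promoting complex, was the least abundant of the 5, at 0 and 0.397 CPM and 7.74 and 2.68 CPM (-4.52 ± 1.22, adjusted p = 0.0306). Its call was lost without code 4 library A or B (adjusted p = 0.182 and 0.0687) or code 3 library A (0.211). Cdk1, Cks1b and Cdc20 were named for this motif after their values were seen.

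Of the T cell lists, the actin cytoskeleton list had the largest share of lower genes. The lists were chosen with earlier results of these data known, so this rank describes them only. Of 40 tested actin list members, 24 were lower in code 4 and 0 higher (median -0.94). The count stayed between 19 and 24 when any 1 of the 4 libraries was left out. Actb, beta actin (ENSMUSG00000029580.14; chromosome 5, 142903115 to 142906754, minus strand), had 3841 and 3948 CPM in code 4, 13562 and 10720.1 CPM in code 3 and 9083, 9693 and 9713 CPM at day 0 (-1.64 ± 0.12, adjusted p = 1.91e-08). Code 4 was below day 0 (-1.29 ± 0.11, adjusted p = 1.51e-07) and code 3 did not pass (0.35 ± 0.10, adjusted p = 0.0612). Actg1, gamma actin, had 2937 and 3395 CPM against 7071 and 7892 CPM (-1.24 ± 0.10). Tmsb4x, thymosin beta 4, which holds actin monomers in reserve, had 2611 and 2598 CPM against 7085 and 5696 CPM (-1.30 ± 0.11).

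Genes other than those of actin and its binding proteins were lower as well. The actin cytoskeleton list is broad, and its counts include genes of other kinds, such as Lgals1, Anxa2 and S100a4. The intermediate filament gene Vim had 1449 and 1627 CPM in code 4 against 6378 and 5745 CPM in code 3, with 3438, 3931 and 3488 CPM at day 0 between them (-1.98 ± 0.11, adjusted p = 4.43e-10). Lgals1, the lectin galectin-1, had 538 and 504 CPM against 2371 and 2357 CPM (-2.18 ± 0.11). The membrane-binding Anxa2 had 316 and 318 CPM against 1044 and 1052 CPM (-1.73 ± 0.14). S100a4, a calcium-binding partner of myosin, had 859 and 752 CPM in code 4, 2007 and 1975 CPM in code 3 and 3242, 3323 and 3328 CPM at day 0. Both codes were below day 0 (-2.03 ± 0.10 and -0.73 ± 0.10). Over the list, code 4 had 24 genes lower and 2 higher than day 0, and code 3 had 3 lower and 8 higher. Among all genes 5.15% were lower and 3.48% higher in code 4 than at day 0, and 1.16% lower and 2.78% higher in code 3. Keratinocytes, phagocytes and fibroblasts make these transcripts too. Keratinocyte markers summed to 1006 and 1276 CPM in code 4 against 4891 and 4406 CPM in code 3, and phagocyte markers to 156 and 193 CPM against 1322 and 1217 CPM; their part in the actin result was not tested.

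**Figure D3:**
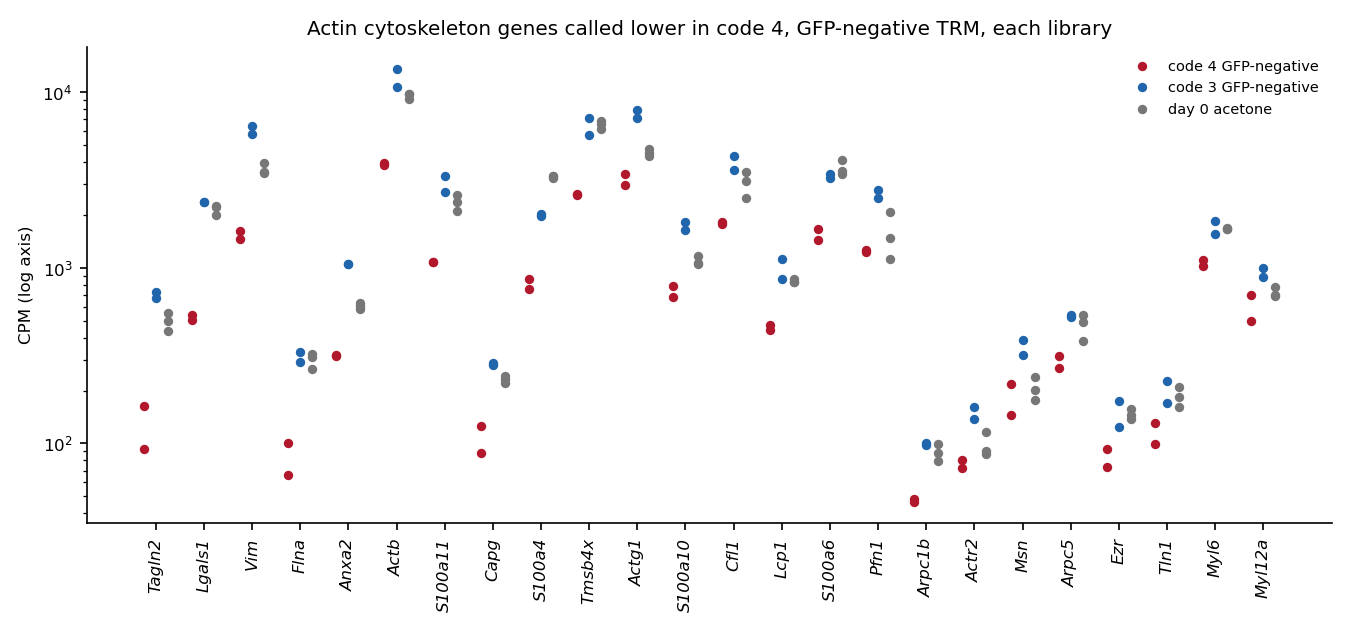
Points are libraries, in CPM on a log axis, for the 24 members of the actin cytoskeleton list called lower in code 4. They are ordered by fold change from the left: code 4 GFP-negative in red, code 3 GFP-negative in blue and day 0 acetone in grey. The list also holds genes of other kinds, such as Lgals1. In every one of the 24 genes both code 4 libraries lie below both code 3 libraries, as they do in 27.9% of all tested genes.

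Energy metabolism and lipid synthesis showed smaller sets of lower genes. Of 23 glycolysis genes 7 were lower and 0 higher (median -0.97). Pgk1, phosphoglycerate kinase, had 225 and 248 CPM against 665 and 540.2 CPM (-1.35 ± 0.15). Ldha, which makes lactate, had 564 and 445 CPM against 1215 and 1027 CPM (-1.15 ± 0.18), and Pkm, pyruvate kinase, 187 and 200.02 CPM against 412 and 343 CPM (-0.97 ± 0.18). For Pgk1 the code 4 level lay near that of day 0, at 280.01, 243 and 252 CPM, and code 3 was above it (1.22 ± 0.13, adjusted p = 8.89e-06). Slc2a3, a glucose transporter, was lower in code 4 (8.66 and 4.37 CPM) than in code 3 (31.9 and 27.5 CPM) and at day 0 (43.7, 47.96 and 49.1 CPM). Of 70 nuclear genes of the respiratory chain 10 were lower and 0 higher (median -0.20), with 5 and 1 without code 4 library A or B and 2 and 10 without code 3 library A or B. Of 26 genes of sterol and fatty acid synthesis 4 were lower (2 and 3 without code 4 library A or B and 2 and 2 without code 3 library A or B). Sc5d, a late enzyme of cholesterol synthesis, had 4.95 and 7.54 CPM against 33.7 and 32.6 CPM (-2.40 ± 0.46).

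Cytosolic ribosomal protein genes were slightly higher in code 4, 9 of 78 called higher and 0 lower, with a median of 0.14. Rps29 had 2468 and 2460.2 CPM in code 4 against 1839.6 and 1699 CPM in code 3 (0.48 ± 0.12). The higher count of this list was 0 and 4 without code 4 library A or B and 6 and 1 without code 3 library A or B, and 0 when only the 4 libraries were fitted. Without code 4 library A or B the median of all genes tested was -0.18, and without code 3 library A or B it was 0. It was also 0 with no count filter. Each refit repeated the count filter, so these medians are over other sets of genes. They do not measure a shift of the same genes. The part of scaling in the calls of this list was not tested. Rps29 lost its call without any 1 of the 4 (adjusted p from 0.0777 to 0.244). Of 34 genes that build ribosomes or start translation 3 were lower, beside 4.7% of all genes, and 0 higher (2 and 1 without code 4 library A or B and 2 and 2 without code 3 library A or B). Eif5a, a translation factor, was at 1925 and 1873 CPM in code 4, 3388 and 2978 CPM in code 3 and 1531, 1296 and 1169 CPM at day 0 (-0.75 ± 0.12 between the codes). Both codes lay above day 0 (0.51 ± 0.11 and 1.26 ± 0.11), code 3 by more.

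Of the brakes on TCR and cytokine signalling, 9 of 42 were higher and 2 lower in code 4 (median 0.39; higher counts of 7 and 8 without code 4 library A or B and 5 and 7 without code 3 library A or B). Ptpn22, a phosphatase that dampens TCR signals (ENSMUSG00000027843.13; chromosome 3, 103859795 to 103912247, plus strand), had 1220.4 and 1274 CPM in code 4, 332 and 389 CPM in code 3 and 242, 255 and 313 CPM at day 0 (1.79 ± 0.16, adjusted p = 2.35e-07). Code 4 alone of the 2 was above day 0 by the test (2.21 ± 0.14, adjusted p = 3.55e-09; code 3 0.42 ± 0.14, adjusted p = 0.111). Dusp2, a phosphatase for MAP kinases, had 268 and 289 CPM in code 4, 66.9 and 94.5 CPM in code 3 and 50.01, 56.2 and 55.4 CPM at day 0 (1.78 ± 0.23). Pdcd4, which blocks a helicase of translation initiation, had 154 and 185 CPM against 30.6 and 24.1 CPM (2.63 ± 0.28). Rgs10, which shortens G protein signals, had 79.6 and 92.9 CPM against 21.8 and 14.3 CPM (2.26 ± 0.28). Rgs10 differed from the others in its order against day 0, at 72.03, 62.7 and 58.9 CPM: code 3 was lower than day 0 (-1.84 ± 0.26, adjusted p = 0.000203) and code 4 near it.

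Pik3ip1, a transmembrane inhibitor of PI3 kinase, had the largest fold among the higher genes at 20 CPM or more (ENSMUSG00000034614.14; chromosome 11, 3330401 to 3342971, plus strand). It had 61.9 and 49.6 CPM in code 4, 1.39 and 2.08 CPM in code 3 and 3.35, 5.47 and 4.49 CPM at day 0 (4.97 ± 0.59, adjusted p = 1.34e-05). The cytokine brake Socs1 was higher, at 726 and 612 CPM in code 4 against 335 and 395 CPM in code 3 (0.87 ± 0.22; adjusted p = 0.139 without code 4 library A, and 0.223 and 0.0751 without code 3 library A or B). Its relative Socs3 was lower, at 2.06 and 7.94 CPM against 30.7 and 36.6 CPM (-2.74 ± 0.55). Ubash3b, a phosphatase of the TCR pathway, was the other lower member, at 3.71 and 11.9 CPM against 38.9 and 37.97 CPM (-2.29 ± 0.39). The members of this list thus did not share 1 direction.

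Genes known to be induced by glucocorticoids also changed in both directions, with 8 of 32 higher and 5 lower in code 4 (median 0.45). The higher count was 7 and 7 without code 4 library A or B and 5 and 6 without code 3 library A or B. The lower count was 3 and 4 without code 4 library A or B and 3 and 3 without code 3 library A or B. Tsc22d3, the leucine zipper protein GILZ, which binds inflammatory transcription factors (ENSMUSG00000031431.13; chromosome X, 140539528 to 140600659, minus strand), had 312 and 232 CPM in code 4, 94.2 and 116 CPM in code 3 and 98.4, 70.96 and 109 CPM at day 0 (1.37 ± 0.23, adjusted p = 0.000691). Fkbp5, a cochaperone of the glucocorticoid receptor, had 47.4 and 59.1 CPM against 16.1 and 16.5 CPM and 11.3, 12.3 and 14.96 CPM at day 0 (1.71 ± 0.37, adjusted p = 0.00705). Its call was lost without code 4 library B (adjusted p = 0.0538), code 3 library A (0.0853) or code 3 library B (0.068). The clock gene Per1 had 75.9 and 85.3 CPM in code 4 and 47.2 and 32.6 CPM in code 3 and was not called (1.02 ± 0.31, adjusted p = 0.0525).

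Cebpb, a transcription factor of inflammation and differentiation, had 396 and 459.6 CPM in code 4 against 92.8 and 142 CPM in code 3 (1.86 ± 0.21; it overlaps Tmem189, at 32.5 CPM, on the other strand). Txnip, which limits glucose uptake, had 702 and 818 CPM against 189 and 226 CPM (1.87 ± 0.26). Cxcr4, the receptor for CXCL12, had 195 and 214 CPM against 69.4 and 73.1 CPM (1.52 ± 0.23). In the opposite direction went the metal-binding metallothioneins: Mt2 had 341 and 271 CPM in code 4 against 2052 and 1655 CPM in code 3, with 303, 333 and 377 CPM at day 0 (-2.60 ± 0.19). Mt1 had 501 and 395 CPM against 1316 and 1152 CPM (-1.46 ± 0.19). Anxa1, an annexin that limits leukocyte recruitment, was lower as well, at 66.8 and 61.1 CPM against 190.4 and 156 CPM (-1.44 ± 0.20). Nr3c1, the receptor gene itself, had 46.2 and 63.9 CPM in code 4 and 53.6 and 90.5 CPM in code 3 and was not called (adjusted p = 0.617); it was named after its values were seen.

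Among the most abundant of the higher genes was Emb. Its product embigin is a membrane chaperone of monocarboxylate transporters. Emb (ENSMUSG00000021728.8; chromosome 13, 117208536 to 117274415, plus strand) had 2937 and 2687 CPM in code 4, 719.7 and 704 CPM in code 3 and 271, 303 and 473 CPM at day 0 (1.98 ± 0.19, adjusted p = 7.70e-07). Both codes were above day 0 (3.01 ± 0.17 and 1.03 ± 0.17). Ezh1, a histone H3 lysine methyltransferase of resting cells, had 79.6 and 70.6 CPM against 7.14 and 8.49 CPM (3.26 ± 0.41), and here the day 0 libraries, at 25.01, 33.7 and 44.9 CPM, lay between the codes. Rasgrp2, an activator of Rap1 that serves integrin adhesion, had 22.3 and 29.4 CPM against 1.79 and 2.08 CPM (3.72 ± 0.76), and without code 3 library A or B its call was lost (adjusted p = 0.0765 and 0.0541). The pro-apoptotic Bbc3 (PUMA) had 50.3 and 61.5 CPM against 3.97 and 7.59 CPM (3.26 ± 0.62), a call lost without code 3 library A (2.85, adjusted p = 0.0578). No other of the 22 Bcl2 family and cell death genes passed, beside 4.7% lower and 1.98% higher among all genes. Bcl2 stood at 149 and 216 CPM in code 4 and 152 and 159 CPM in code 3.

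TCR-response genes were divided, with 4 of 40 higher and 6 lower (5 and 6 without code 4 library A or B and 4 and 4 without code 3 library A or B for the lower ones). Tnfrsf9, the costimulatory receptor 4-1BB (ENSMUSG00000028965.13; chromosome 4, 150914562 to 150946102, plus strand), had 75.1 and 104 CPM in code 4, 723 and 561 CPM in code 3 and 61.1, 49.6 and 66.6 CPM at day 0 (-2.84 ± 0.21, adjusted p = 3.21e-08). The gene overlaps Camta1, at 54.6 CPM, on the other strand. Tnfrsf18, the receptor GITR, had 53.6 and 55.96 CPM against 139.9 and 136 CPM (-1.33 ± 0.24). Nfkbid, a nuclear regulator of NF-kB, was higher, at 398 and 376 CPM against 180.3 and 195 CPM (1.04 ± 0.19). Egr1 and Nr4a2, early genes of TCR signalling, had 58.2 and 55.2 CPM against 95.6 and 69.8 CPM and 40.01 and 34.1 CPM against 46.6 and 61.6 CPM, and neither was called. The 4 higher members were Fos, Junb, Ier2 and Nfkbid, and their number was 2 and 2 without code 4 library A or B and 1 and 1 without code 3 library A or B. Of the list of heat shock and dissociation stress, 5 of 26 were higher (3 and 1 without code 4 library A or B and 0 and 1 without code 3 library A or B) and 6 lower (2 and 4 without code 4 library A or B and 3 and 4 without code 3 library A or B). The chaperone gene Hspa1b had 1019 and 1029 CPM against 1559 and 1983 CPM (-0.79 ± 0.16).

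Surface receptors and residency genes showed few calls each, beside 4.7% lower and 1.98% higher among all genes. Inhibitory receptors had 2 higher genes among 13 and 0 lower ones. Pdcd1, which encodes PD-1, stood at 168 and 185 CPM against 37.7 and 92.2 CPM (1.44 ± 0.29), and lost its call without code 3 library A (0.91, adjusted p = 0.0741); without code 3 library B its log2 fold change was 2.16. Ctla4 was at 30.9 and 36.9 CPM against 6.35 and 7.89 CPM (2.25 ± 0.66), a call lost without any 1 of the 4 (adjusted p from 0.0896 to 0.277). Havcr2, which encodes TIM-3, had 189 and 256 CPM in code 4 and 277 and 247 CPM in code 3 with no call. Klrd1, the CD94 chain of lectin-like receptors, had 315 and 283 CPM against 142 and 104 CPM and 196, 225 and 229 CPM at day 0 (1.28 ± 0.21); here code 3 was lower than day 0 (-0.82 ± 0.19, adjusted p = 0.0192). Of 9 killer lectin-like receptor genes 2 were higher, Klrd1 among them (2 and 2 without code 4 library A or B and 2 and 1 without code 3 library A or B), and 1 lower (1 and 0 without code 4 library A or B and 1 and 1 without code 3 library A or B). Of 11 chemokine receptor genes 3 were higher (1 and 2 without code 4 library A or B and 2 and 1 without code 3 library A or B) and 2 lower (2 and 1 without code 4 library A or B and 2 and 2 without code 3 library A or B). Ccr1, a receptor for inflammatory chemokines, had 10.7 and 15.5 CPM against 82.5 and 62.7 CPM (-2.47 ± 0.45). Of 27 cytokine receptor genes 2 were higher and 3 lower (3 and 1 without code 4 library A or B and 1 and 2 without code 3 library A or B). Il2rg, the common gamma chain, had 1978 and 1999 CPM against 4527 and 4267 CPM (-1.14 ± 0.13). Ifngr1, a chain of the interferon gamma receptor, was higher, at 457 and 465 CPM against 171 and 151 CPM (1.52 ± 0.21).

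Of 19 tissue residency genes 5 were lower and 0 higher (3 and 3 without code 4 library A or B and 4 and 4 without code 3 library A or B), Itgae among them. Cd9, a tetraspanin that epithelial cells also make, had 28.05 and 19.8 CPM in code 4 against 126 and 117 CPM in code 3 (-2.34 ± 0.32). Among 24 genes of exit, circulation and quiescence 3 were higher (1 and 3 without code 4 library A or B and 2 and 1 without code 3 library A or B) and 3 lower (1 and 1 without code 4 library A or B and 2 and 1 without code 3 library A or B). Cd44, the hyaluronan receptor of memory cells, had 959 and 961 CPM against 2211 and 2116 CPM (-1.17 ± 0.13). S1pr4, a receptor for the lipid that guides exit from tissue, was higher, at 99.8 and 86.5 CPM against 21.8 and 26.5 CPM (1.94 ± 0.36). Of 26 genes of TCR complex and CD8 identity 6 were lower and 1 higher (median -0.06). Thy1 had 2009 and 2019.7 CPM in code 4 against 5574 and 5098 CPM in code 3 (-1.41 ± 0.11), and Cd52 862 and 839.8 CPM against 1700.5 and 1511 CPM (-0.92 ± 0.12). Cd3g, a signalling chain of the TCR, had 888 and 839 CPM against 1743 and 1569.9 CPM (-0.94 ± 0.14). Cd3e, its partner chain, had 641 and 497 CPM against 772 and 765 CPM and did not pass (-0.43 ± 0.16, adjusted p = 0.108).

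Markers of other skin cells were present in every library, and many were lower in code 4. Of 31 tested keratinocyte markers 16 were lower and 0 higher, and the list summed to 1006 and 1276 CPM in code 4, 4891 and 4406 CPM in code 3 and 4636 to 5039 CPM at day 0. Krt14 and Krt5, the keratins of basal epidermis, had 64.3 and 78.98 CPM against 842 and 604 CPM (-3.33 ± 0.24) and 32.2 and 51.6 CPM against 410.4 and 282 CPM (-3.04 ± 0.27). The keratins of inflamed epidermis were nearly absent from code 4 and from day 0. Krt16 had 0 and 3.17 CPM in code 4, 407 and 332 CPM in code 3 and 4.75, 4.49 and 2.49 CPM at day 0. Krt6b had no count in code 4, 98.8 and 55.1 CPM in code 3 and 0, 0.280 and 0 CPM at day 0, and was at least 122-fold lower in code 4 than in code 3.

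Markers of phagocytes and Langerhans cells (6 of 26 lower, 0 higher) summed to 156 and 193 CPM in code 4 and 1322 and 1217 CPM in code 3. Of 33, 17 were at 0 in each code 4 library and 7 in each code 3 library. H2-Ab1, an MHC class II chain that presents antigen to CD4 cells, had 0 and 1.59 CPM against 179.5 and 190.1 CPM (-7.80 ± 0.46, adjusted p = 1.34e-09). Its fitted fold rests on the few counts of code 4 library B: it was -6.85 without library A and -12.9 without B, where code 4 has no count and the value is no bound. Cd74, its invariant chain, had 2.47 and 5.16 CPM against 85.1 and 89.2 CPM (-4.50 ± 0.52). Neutrophil markers (4 of 11 lower; 2 and 2 without code 4 library A or B and 2 and 2 without code 3 library A or B) summed to 14.8 and 13.9 CPM in code 4 and 144 and 143 CPM in code 3. Mmp3, a protease of the extracellular matrix, was without a count in code 4 and had 123 and 82.04 CPM in code 3, at least 164-fold lower. The fibroblast list had 2 lower genes, Mmp3 and Thy1, which T cells make, and 1 higher, Dcn, which lost its call without any 1 of the 4 libraries. Lyz2 and Cd4 had no count in the 4 libraries, markers of B cells were at 0 in all of them, and those of mast cells, melanocytes and endothelium summed to at most 8.53 CPM. Markers of CD4 and regulatory T cells had 1 higher and 2 lower of 8 (149 and 182 CPM in code 4 against 354 and 348 CPM in code 3). Those of NK and innate lymphoid cells had 1 higher and 2 lower of 10 (617 and 536 CPM against 722 and 734 CPM). Cxcl9, Iigp1 and other interferon-induced genes, MHC class I genes, cell cycle genes and the actin genes are expressed by these skin cells as well, and how much of their difference came with them was not tested. With genes of other cells' lists left out before scaling, apart from those also on a T cell list, 744 genes were called. This step keeps transcripts that those cells share with T cells, so it does not measure their part.

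**Figure D4:**
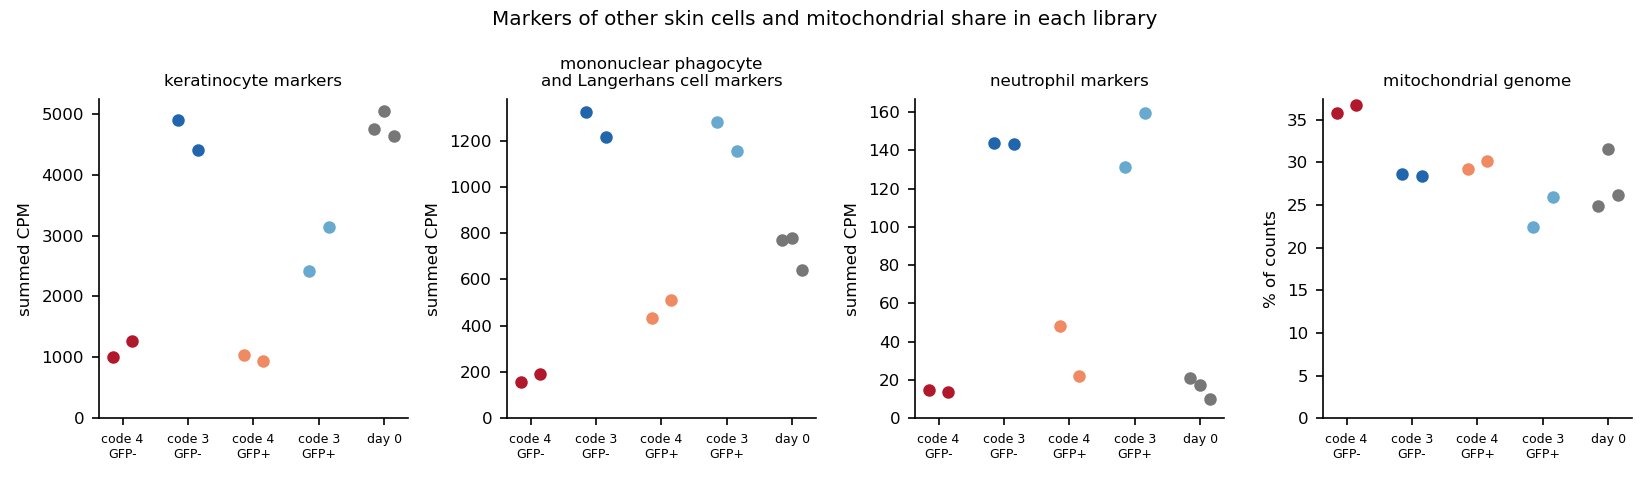
Points are libraries: summed CPM of keratinocyte, phagocyte and neutrophil markers, and percentage of counts on the mitochondrial genome, for day 1 GFP-negative and GFP-positive cells of code 4 and code 3 and for day 0. Code 4 GFP-negative libraries lie below code 3 GFP-negative ones in all 3 marker sums and above them in mitochondrial share (35.8 and 36.7% against 28.6 and 28.4%).

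The difference between the codes was compared between GFP-negative and GFP-positive cells by the interaction of code and GFP state. It was called for 103 genes (0.889%), 29 with a higher value in GFP-negative cells (0.25%) and 74 with a lower one (0.639%). Within GFP-positive cells, code 4 differed from code 3 by 367 genes (3.17%), 107 higher (0.923%) and 260 lower (2.24%). In the actin list 10 of 40 had a lower value and 0 a higher one. Actb had 3841 and 3948 CPM in code 4 against 13562 and 10720.1 CPM in code 3 among GFP-negative cells, and 3971 and 4611 CPM against 5771 and 6639 CPM among GFP-positive cells (difference of the log2 fold changes -1.11 ± 0.16, adjusted p = 0.000943). Of the 8 libraries, the code 3 GFP-negative ones were the highest. Lgals1 had 427 and 367 CPM in code 4 against 925 and 965 CPM in code 3 among GFP-positive cells, also a smaller fold than in GFP-negative cells (-0.93 ± 0.15, adjusted p = 0.00363). Both held when any 1 of the 8 libraries was left out. Vim, Tmsb4x and the actin-severing Cfl1 were called in the full fit (-0.81 ± 0.15, -0.80 ± 0.15 and -1.05 ± 0.19) and not without code 3 GFP-negative library A (adjusted p = 0.0533, 0.0591 and 0.0548). Vim also lost its call without code 4 GFP-negative library A (0.0527) or code 3 GFP-positive library B (0.052), and Tmsb4x without code 3 GFP-positive library A (0.0699).

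For cytokines the sense was opposite, with 6 of 20 higher in the interaction and 0 lower. Il3, a growth factor for mast cells and basophils, had 15.7 and 12.3 CPM in code 4 and 11.1 and 16.5 CPM in code 3 among GFP-negative cells, which overlapped. It had 185 and 202 CPM against 5642 and 6346 CPM among GFP-positive cells (4.96 ± 0.33, adjusted p = 7.26e-08). Ccl3 was not called in GFP-negative cells either, and was at 3859 and 4016 CPM against 21458 and 22745 CPM in GFP-positive ones (2.60 ± 0.22). Ifng was lower in code 4 in both states and by less in GFP-negative cells (-1.80 ± 0.16) than in GFP-positive ones (-3.23 ± 0.17; interaction 1.44 ± 0.22, adjusted p = 0.00146). Gzmb took the other course, its difference being larger in GFP-negative cells (-3.89 ± 0.15) than in GFP-positive ones (-2.57 ± 0.14; interaction -1.32 ± 0.19, adjusted p = 0.000807).

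The receptor genes Tnfrsf9 and Il2rg had a larger fold in GFP-negative cells. Tnfrsf9 had 1395 and 1387 CPM against 2116 and 2132 CPM in GFP-positive cells, a smaller fold than in GFP-negative ones (-2.23 ± 0.28, adjusted p = 0.00032). Il2rg was at 5489 and 5756 CPM against 4912 and 5499 CPM in GFP-positive cells, which overlapped (-1.26 ± 0.18, adjusted p = 0.000943). Ptpn22 was higher in code 4 by more in GFP-negative than in GFP-positive cells, where it had 855 and 969 CPM against 637 and 630.1 CPM (1.26 ± 0.22, adjusted p = 0.00464). Cd8a, not called within GFP-negative cells, had 937 and 1043 CPM in code 4 against 643 and 594 CPM in code 3 among GFP-positive ones. Its interaction was called (-1.02 ± 0.19, adjusted p = 0.00885), a call lost without code 4 GFP-positive library B (0.0545), code 3 GFP-negative library A (0.0709) or code 3 GFP-positive library B (0.0773). Of 32 glucocorticoid-induced genes 2 were called in the interaction, Mt1 and Mt2 (-1.57 ± 0.27 and -1.95 ± 0.25, adjusted p = 0.00433 and 0.00032). Tsc22d3, Fkbp5 and Cebpb, with values of -0.25 ± 0.32, -0.24 ± 0.51 and 0.13 ± 0.29, did not pass. The number of interaction calls was lower without code 3 GFP-negative library A (47), code 3 GFP-positive library A (47) or code 3 GFP-positive library B (64).

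**Figure D5:**
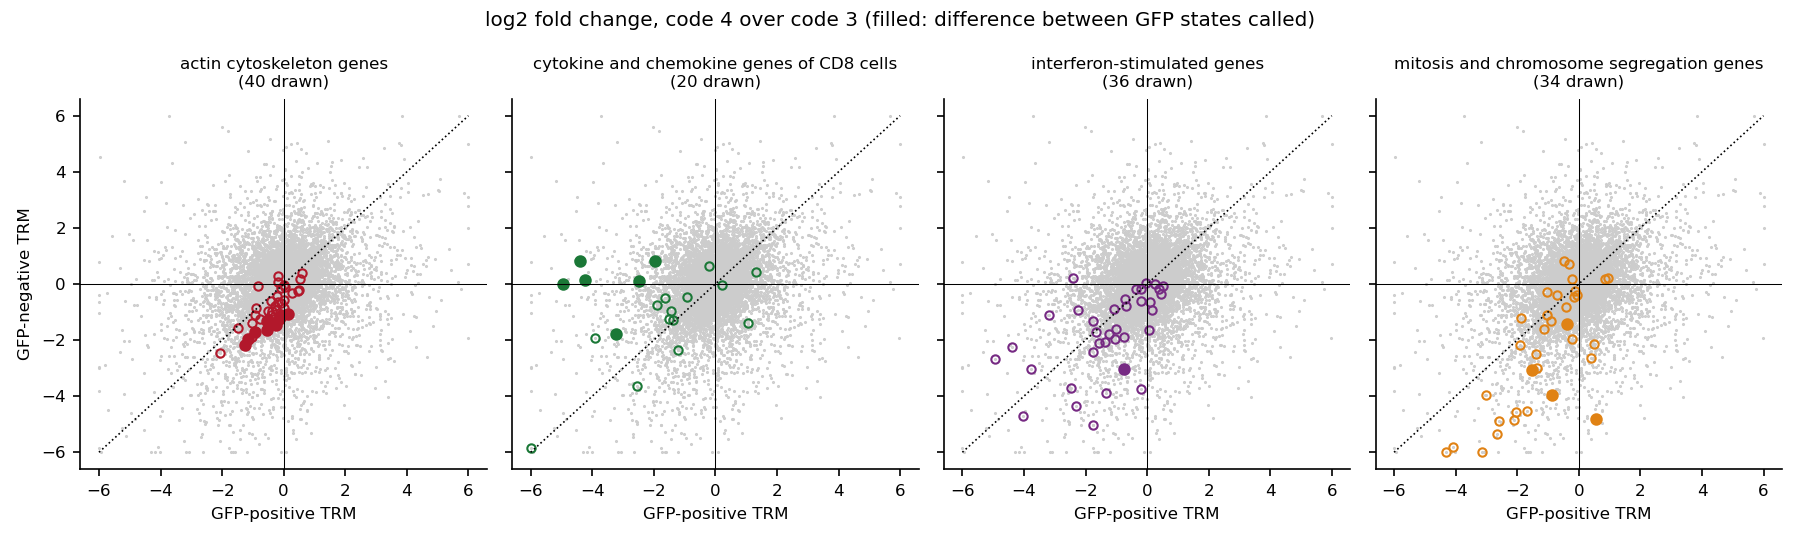
Log2 fold changes of code 4 over code 3 in GFP-negative cells (vertical) and GFP-positive cells (horizontal), limited to ±6; grey dots are all tested genes with counts in all 4 groups, circles the members of 4 lists, filled where the interaction was called. Filled actin genes lie below the dotted line of equal change, and filled cytokine genes lie above it.

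Placed against the acetone libraries of day 0, the codes differed in how many genes were called. For the code that is TA, such a count holds treatment and time together, which cannot be told apart. Code 4 differed from day 0 by 1000 genes (8.63%), 403 higher and 597 lower, and code 3 by 457 (3.94%), 322 higher and 135 lower; both comparisons use the same 3 day 0 libraries. Without code 4 library A or B the code 4 count was 646 and 620, and without code 3 library A or B the code 3 count was 202 and 208. The share of higher genes in the code 3 comparison was 70.5%, which DESeq2 put at 54.4%. The order code 4, day 0, code 3 from low to high was seen in Ifng, Actb and Vim. For Stmn1 and Top2a, day 0 was highest and code 4 lowest. In Ptpn22, Dusp2, Emb and Cxcr4, day 0 was lowest and code 4 highest, with the Cxcr4 libraries at 195 and 214 CPM in code 4, 69.4 and 73.1 CPM in code 3 and 36.98, 29.3 and 25.2 CPM at day 0.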

How the data were processed

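Gene expression was measured by CEL-seq2 RNA sequencing of sorted cells. The authors deposited a table of raw counts per gene; bcl2fastq 2.2, BWA 0.7.15, HTSeq and the build GRCm38 are named per the submitters' processing notes, while how molecular identifiers and strand were handled is not stated in these sources. Of 18054 genes, 11588 passed edgeR's filterByExpr. All 17 libraries of the first experiment were fitted with 1 mean per code and GFP state (edgeR 4.0.16, R 4.3.3, TMM, robust quasi-likelihood test, Benjamini-Hochberg adjusted p under 0.05); GFP-negative code 4 over code 3, its interaction with GFP state and each code over day 0 were contrasts of this fit. Total counts ran from 2442825 to 6741144 in the 4 libraries, and their number limits the precision.

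The members and gene lists were chosen with earlier results of these data known. Cd8a, Cd8b1, Cd3e, Itgae, Cd69, Nr4a1, Tsc22d3, Fkbp5, Per1, Gzmb, Ifng and eGFP were named whether called or not. Further genes were taken from those called without overlap between the codes. These were the 12 with the largest fold change per direction at 20 CPM or more and the 8 most abundant per direction. Up to 6 called members of each list by p (4 for other cells) were named whether the codes overlapped or not. So were 8 genes called in the interaction, which needed no call between the codes. The text gives a selection of these and says where others were added. Where code 4 had no count, a fold was computed against 3 counts over the group. On simulated counts for this comparison (11156 genes), the test recovered 11 of 100 changes of 2-fold and 37 of 100 of 4-fold, with 1 false call among 49. Alternatives were DESeq2 1.42.0, median-of-ratios factors, no filter, thinning, genes left out, fewer libraries, the replicate block and leaving out each library. Refits with fewer libraries repeated the count filter, so the set of genes tested differed from that of the full fit. Promoters came from RefSeq (GRCm38.p6) and gene positions from GENCODE vM21. Libraries of later days and of the second experiment are not reported here.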

Additional observations from a re-analysis of the deposited data

Results flagged for a closer look

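For 8 genes, the difference between code 4 and code 3 itself differed between GFP-negative and GFP-positive cells by the interaction test of edgeR. They are the called genes with the smallest p at 20 CPM or more in some day 1 group, and no explanation of them was tested.

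Among transcripts of T cells, Tnfrsf9 had a log2 difference of folds (GFP-negative minus GFP-positive) of -2.23, as described in the report, Il3 of 4.96 and Ccl3 of 2.60. For the last 2, the codes differed among GFP-positive cells and were not called among GFP-negative ones. Mt2, a metallothionein, had 341 and 271 CPM in code 4 against 2052 and 1655 CPM in code 3 among GFP-negative cells. Among GFP-positive cells it had 665 and 673 CPM against 867 and 1231 CPM (interaction -1.95, adjusted p = 0.00032). Which cells carried Mt2 was not tested.

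The other 4 are genes of other skin cells. Krt14 had 64.3 and 78.98 CPM in code 4 against 842 and 604 CPM in code 3 in GFP-negative cells, and 305 and 309.98 CPM against 377 and 575 CPM in GFP-positive cells (-2.70, adjusted p = 0.00012). H2-Ab1 had 0 and 1.59 CPM in code 4 against 179.5 and 190.1 CPM in code 3 in GFP-negative cells, and 87.8 and 88.3 CPM against 199 and 206 CPM in GFP-positive ones (-6.59, adjusted p = 1.16e-06; -5.61 without code 4 GFP-negative library A and -11.6 without B, where code 4 has no count and the value is no bound). Krt6b had no count in code 4 GFP-negative cells, and 20.6 and 13.02 CPM in code 4 against 0.529 and 0.191 CPM in code 3 among GFP-positive cells, so that its difference of folds was at most -12.3. Krt2, a keratin of upper epidermis, went the other way (4.14, adjusted p = 9.48e-05), with 191 and 246 CPM against 344 and 384 CPM in GFP-negative cells and 14.7 and 4.47 CPM against 249 and 331 CPM in GFP-positive ones.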

How the results depend on the processing

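The count of genes called between code 4 and code 3 in GFP-negative cells (775) was 1273 by DESeq2 and 311 with only the 4 libraries fitted, and 356 to 556 when 1 library was left out. Of the 775, 773 were called by DESeq2, 299 of 765 tested in the 4-library fit, and 744 of 749 with genes of other cells left out. Of 158 named genes that were called, 78 were called under every alternative that tested them; no named gene reversed, and 1 of the 775 had the other sign without code 4 library A. The interaction with GFP state (103) was 321 by DESeq2, 310 without the count filter, 68 in the 8 day 1 libraries and 47 to 104 without 1 library. Code 4 over day 0 (1000) was 1532 by DESeq2 and 620 to 793 without 1 library. Code 3 over day 0 (457) was 807 by DESeq2, 687 without the filter and 202 to 347 without 1 library. The code difference in GFP-positive cells (367; 29.2% higher) was 698 by DESeq2 (41.8% higher), 626 without the filter and 179 to 251 without 1 library. The causes of these changes were not tested.

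With the letters as a replicate block, 678 genes were called between the codes, 85 in the interaction, 701 and 287 for code 4 and code 3 over day 0, and 318 in GFP-positive cells. Deviations of same-lettered libraries correlated by -0.036 to 0.031 across genes. Between GFP states of the same code the values were 0.031 in code 4 and -0.033 in code 3. The letters were not treated as pairs. These values cannot show whether same-lettered libraries shared animals, because noise in each library also brings them near 0. Without mitochondrial transcripts, keratinocyte markers summed to 1554 and 2018 CPM in code 4 and 6350 and 6132 CPM in code 3. The smaller totals of the code 4 libraries limit genes with few counts, and a missing call there does not show equal levels.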
